A study of Mus musculus with 2 samples.

Results

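The miR-290 to miR-295 cluster is a group of miRNA hairpins on mouse chromosome 7 that are known to be processed from a shared primary transcript. The members described here are the listed miRNA genes Mir291a, Mir292, Mir291b, Mir293, Mir294 and Mir295. Each of the 6 symbols had a row in the deposited counts, out of 1973 genes counted in all. Small RNA was sequenced from forebrain of B6NCrl mouse embryos of both sexes, described as healthy, at 10.5 days of development. The samples form 1 group of 2 libraries. Tissue of 69 embryos was pooled for replicate 1 and tissue of 51 embryos for replicate 2, and the labels call these pools biological replicates. The series therefore has no treated, mutant or second-tissue group, and no comparison between conditions was possible. Each value is that of a pool of whole forebrains, not of a single embryo or cell type.

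The cluster is known for its high level in mouse embryonic stem cells, the early embryo and primordial germ cells, and for its decline as cells differentiate. A miRNA hairpin is cut into a 5p and a 3p arm of about the length of the sequenced fragments, and bases 2 to 8 of a mature arm, the seed, pair with target messenger RNAs. In embryonic stem cells, 3p miRNAs of this cluster are known to shorten the passage from G1 to S phase by repressing inhibitors of the cell cycle such as p21, the product of Cdkn1a. In mouse fibroblasts miR-291a-3p, miR-294 and miR-295 are known to raise the yield of reprogramming to pluripotent cells. The miR-302 cluster, also known from pluripotent cells, carries a related seed.

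The mature sequences below show which hairpins share a seed, because the counts were made per hairpin and do not tell arms apart. They are credited to RefSeq, build GRCm38.p6, which corresponds to mm10. All are given 5′ to 3′, with the seed in capitals. The 3p arms are
miR-291a-3p: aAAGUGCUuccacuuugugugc
miR-291b-3p: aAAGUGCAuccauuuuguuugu
miR-293-3p: aGUGCCGCagaguuuguagugu
miR-294-3p: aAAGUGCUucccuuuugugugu
miR-295-3p: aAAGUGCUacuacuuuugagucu
and the 5p arms are
miR-291a-5p: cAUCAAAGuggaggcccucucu
miR-291b-5p: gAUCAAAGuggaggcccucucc
miR-292a-5p: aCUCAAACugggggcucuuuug
miR-293-5p: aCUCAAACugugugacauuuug
miR-294-5p: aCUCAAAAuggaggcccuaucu
miR-295-5p: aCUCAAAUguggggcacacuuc
For comparison, examples of arms with a related seed in the miR-302 and miR-17 clusters are
miR-302d-3p: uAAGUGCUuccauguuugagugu
miR-17-5p: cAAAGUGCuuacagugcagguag

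Among the 11 member sequences shown, miR-291a-3p, miR-294-3p and miR-295-3p shared the seed AAGUGCU, which miR-302b-3p and miR-302d-3p also carry. Of the 1738 mature sequences of the RefSeq table, 5 had this seed, a share of 0.288%. The 3p arm of Mir291b differs from that seed in its last base and shares the 6 letters AAGUGC at bases 2 to 7. Those letters were at bases 2 to 7 in 4 of the 11 member sequences shown and in 8 of the 1738 listed, or 0.460%. The arm miR-292a-3p had no entry among them and was not analysed here. These counts hold for the listed sequences only, and other arms without an entry may carry the same seed. In miR-17-5p the same letters lie 1 base further from the 5′ end. The 3p arm of Mir293 had the seed GUGCCGC, found in no other sequence of the table. Among the 5p arms, miR-291a-5p and miR-291b-5p shared the seed AUCAAAG and miR-292a-5p and miR-293-5p shared CUCAAAC, which miR-290a-5p also has.

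The hairpins run in the same direction over 1923 bases, from Mir291a at chr7:3218919-3219000 to Mir295 at chr7:3220773-3220841 on the plus strand of mm10. Between them lie Mir292 at chr7:3219189-3219270, Mir291b at chr7:3219482-3219560, Mir293 at chr7:3220343-3220422 and Mir294 at chr7:3220641-3220724. In the GENCODE M21 annotation all 6 lie opposite to Nlrp12, a gene of the NLR family on the minus strand, within a UTR of an exon of 1 of its 2 transcripts. Mir290a, the first hairpin of the cluster by position, is not among the listed members. It starts 293 bases before Mir291a and had a row of its own. Mir290b and Mir292b are annotated on the minus strand, opposite to Mir290a and Mir292, and had no row.

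Reads of the cluster were present in both forebrain pools at a low level. The 6 members held 1103 of 3256070 gene counts in replicate 1 and 1218 of 3574530 in replicate 2. In replicate 1 their share was 0.0339%, with a 95% exact interval of 0.0319 to 0.0359, and in replicate 2 it was 0.0341%, with an interval of 0.0322 to 0.0360. This is a mean of 0.0340% ± 0.00014 (SD, n = 2). Scaled to the library's gene counts as CPM, the cluster summed to 338.8 (replicate 1) and 340.7 (replicate 2). The counting interval of each library contained the other library's value. In tissue made of many cell types, few cells with much of a miRNA and many cells with little of it cannot be told apart. All intervals describe counting error alone. PCR copies of a molecule are counted as separate reads, so the intervals may also be too narrow.

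Mir293 was the most abundant member. It had 579 counts (178 CPM, 95% interval 164 to 193) in replicate 1 and 622 counts (174 CPM, 161 to 188) in replicate 2. It ranked 192nd and 195th of the 1973 genes by count. The difference in the level of Mir293 between the pools lay within counting error. Mir292 had 203 counts (62.3 CPM) in replicate 1 and 235 counts (65.7 CPM) in replicate 2. Mir294, a member with the seed AAGUGCU, had 210 counts (64.5 CPM) in replicate 1 and 217 counts (60.7 CPM) in replicate 2. Mir292 and Mir294 changed places between the libraries, and their levels overlapped.

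The other members were rarer. Mir291a had 50 counts (15.4 CPM, 95% interval 11.4 to 20.2) in replicate 1 and 65 counts (18.2 CPM, 14.0 to 23.2) in replicate 2. Mir295, which also carries the seed AAGUGCU, had 39 counts (11.98 CPM, 8.52 to 16.4) in replicate 1 and 52 counts (14.5 CPM, 10.9 to 19.1) in replicate 2. Both were slightly lower in replicate 1, within their intervals. Mir291b was the lowest, with 22 counts (6.76 CPM, 4.23 to 10.2) in replicate 1 and 27 counts (7.55 CPM, 4.98 to 11.0) in replicate 2. It still exceeded the 3 counts that a count of 0 allows, or 0.921 CPM (replicate 1) and 0.839 CPM (replicate 2). That limit is one-sided at 95%, whereas the intervals are two-sided. Mir291b ranked 348th and 340th of the 1973 genes, of which 676 and 681 had any count.

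**Figure D1:**
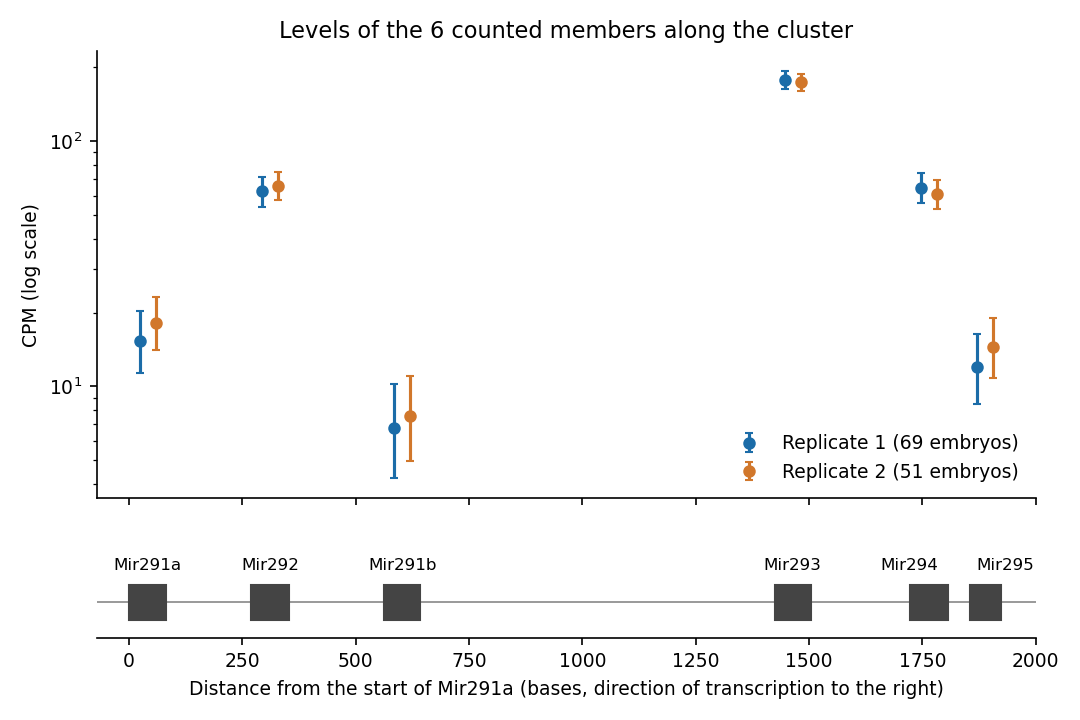
Level of each member in CPM on a log scale against its distance in bases from the start of Mir291a, with 95% Poisson intervals (counting error only); points of the libraries are set slightly apart, and the boxes below show the hairpins to scale. Mir293 lies highest at 178 and 174 CPM and Mir291b lowest at 6.76 and 7.55 CPM, and the intervals of the libraries overlap for each member.

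Mir290a was close to the limit of detection. It had 2 counts in replicate 1 (0.614 CPM, 95% interval 0.0744 to 2.22) and 6 counts in replicate 2 (1.68 CPM, 0.616 to 3.65). Its intervals lay below those of each of the 6 members in both libraries. Mir290a was named for its position within 10 kb of the members, and no other counted gene lay in that window.

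On the strand opposite to the members no read was counted in either library. By the same one-sided limit a count of 0 allows up to 3 counts, so at these depths up to 0.921 and 0.839 CPM per hairpin. Reads from Mir292b or from Nlrp12 across these hairpins would fall on that strand, so none was detected at this depth. Only short fragments were sequenced, so whether Nlrp12 is transcribed across these hairpins was not tested. Over all genes 3.31% of the counts on either strand in replicate 1 and 3.62% in replicate 2 were on the opposite strand. The absence was not particular to the members, since 368 of the 401 genes whose counts averaged at least 10, or 91.8%, also had no opposite-strand read.

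The counts of the cluster were unevenly divided among its hairpins, and the division was alike in the pools. Mir293 alone held 52.5% of the cluster's counts in replicate 1 (95% exact interval 49.5 to 55.5) and 51.1% in replicate 2 (48.2 to 53.9). An equal division would give each hairpin 16.7%. Mir292 held 18.8% ± 0.63, Mir294 18.4% ± 0.86, Mir291a 4.93% ± 0.57, Mir295 3.90% ± 0.52 and Mir291b 2.11% ± 0.16 (SD, n = 2). The 3 highest hairpins together held 89.9% in replicate 1 and 88.2% in replicate 2. No hairpin's share moved by more than 1.43 percentage points between the libraries, and the intervals of all 6 shares overlapped. That largest movement was in Mir293. How many reads of each hairpin came from the 5p or the 3p arm was not analysed here.

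**Figure D2:**
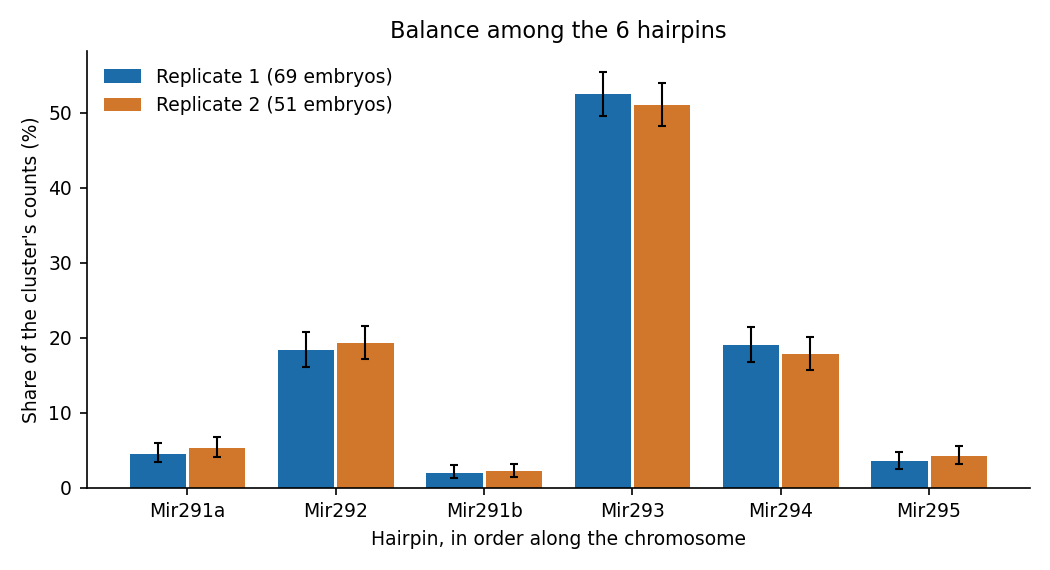
Share of the cluster's gene-strand counts held by each hairpin, in percent, for the library of 69 embryos (replicate 1) and that of 51 embryos (replicate 2); error bars are 95% exact binomial intervals (counting error only). Mir293 holds 52.5% and 51.1%, Mir292 and Mir294 lie together between 17.8% and 19.3%, and the other hairpins hold less than 6% each.

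Levels of different hairpins were compared per 100 bases of annotated hairpin, since the hairpins are 69 to 84 bases long. Fragments are of about arm length, so read numbers need not follow hairpin length. On that scale, in CPM per 100 bases, Mir293 had 222 in replicate 1 and 218 in replicate 2, followed by Mir292 (76.0 and 80.2), Mir294 (76.8 and 72.3), Mir291a (18.7 and 22.2), Mir295 (17.4 and 21.1) and Mir291b (8.55 and 9.56). The order of the mean levels was the same as in CPM. Mir293 exceeded Mir292 2.92-fold in replicate 1 (95% exact interval 2.49 to 3.45) and 2.71-fold in replicate 2 (2.33 to 3.17). Mir294 exceeded Mir291a 4.10-fold (2.999 to 5.70) and 3.26-fold (2.46 to 4.37). Mir295 exceeded Mir291b 2.03-fold (1.17 to 3.59) and 2.21-fold (1.36 to 3.65). In counts without scaling for length, Mir295 exceeded Mir291b 1.77-fold in replicate 1 and 1.93-fold in replicate 2.

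The other neighbours in this order did not differ beyond their spread. The ratio of Mir292 to Mir294 was 0.990 (0.813 to 1.21) in replicate 1 and 1.11 (0.919 to 1.34) in replicate 2. That of Mir291a to Mir295 was 1.08 (0.696 to 1.68) in replicate 1 and 1.05 (0.719 to 1.55) in replicate 2. The pools thus showed the same tiers, Mir293 at the top, then Mir292 and Mir294, then Mir291a and Mir295, and Mir291b lowest. From the highest to the lowest hairpin the levels per length spanned 26.0-fold in replicate 1 and 22.7-fold in replicate 2. With 2 libraries a two-sided exact permutation of signs cannot go below p = 0.5, so these statements rest on counting intervals within each library. They describe numbers of reads, and whether different hairpins were captured equally well in the libraries was not tested.

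Neighbours on the chromosome had unlike levels. Mir292 and Mir291b are separated by 211 bases, and per length Mir292 was 8.89-fold higher in replicate 1 (95% exact interval 5.71 to 14.5) and 8.39-fold higher in replicate 2 (5.62 to 13.0). Mir293 follows Mir291b after the longest gap, of 782 bases, and was 26.0-fold higher in replicate 1 and 22.7-fold higher in replicate 2. The closest pair is Mir294 and Mir295, only 48 bases apart. Mir294 exceeded Mir295 4.42-fold in replicate 1 (3.13 to 6.40) and 3.43-fold in replicate 2 (2.52 to 4.73). Mir293 exceeded Mir294, which is 218 bases downstream, 2.90-fold in replicate 1 (2.47 to 3.41) and 3.01-fold in replicate 2 (2.57 to 3.53). Mir292 exceeded Mir291a, 188 bases upstream, 4.06-fold (2.97 to 5.65) and 3.62-fold (2.74 to 4.83).

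The deposited counts assign multi-mapped reads (2577249 for replicate 1, 2780180 for replicate 2) to no gene, so sequence shared between hairpins bears on these levels. None of the 11 member sequences shown was contained whole in another of the 1005 hairpins searched. The hairpin of Mir291a, the arm miR-292a-3p and the rest of the genome were not part of this search. Among 50 pairs of the mature sequences shown from different members, 1 pair shared a run of 18 bases or more. The 5p arms of Mir291a and Mir291b have the 20 bases aucaaaguggaggcccucuc in common, and a read that lies within them matches both hairpins. The next longest shared run, between miR-291a-3p and miR-294-3p, was 11 bases. The counts of Mir291a and Mir291b may be lower limits for this reason, and the part of this overlap in their low levels was not tested.

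Between the pools no member differed beyond counting error. Ratios are replicate 1 over replicate 2 after TMM scaling, a trimmed-mean correction of library size. By an exact binomial test with Benjamini-Hochberg adjustment over 401 genes, 0 of 6 members passed the threshold of 0.05, against 43.4% of all genes tested. No member passed at an unadjusted p of 0.05 either. The share of calls depends on depth. Among the 151 tested genes whose mean count lay within that of the members (24.5 to 600.5), 13.9% were called. The test compares these 2 libraries and not conditions.

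The log2 ratio was 0.00053 (95% interval −0.17 to 0.17) for Mir293 and 0.06 (−0.22 to 0.34) for Mir294. It was −0.11 (−0.39 to 0.17) for Mir292, −0.19 (−1.07 to 0.67) for Mir291b, −0.27 (−0.84 to 0.28) for Mir291a and −0.31 (−0.95 to 0.32) for Mir295. The exact binomial test gave adjusted p-values between 0.52 for Mir295 and 1 for Mir293. The point estimate was below 0 in 4 of 6 members. The median over the members was −0.15, against −0.03 over all 401 genes and −0.05 over the 151 genes of like count. The median size of the log2 ratio, regardless of sign, was 0.15 for the members and 0.15 for the genes of like count. For the summed counts of the cluster the log2 ratio was −0.04 (−0.16 to 0.08).

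The width of these intervals follows the counts. They cover counting error alone and leave out further variation between libraries, for which the common coefficient of variation was 14.0% over 401 genes. For Mir293 the counting interval ran from 0.892-fold to 1.12-fold. For Mir291b the interval ran from 0.475-fold to 1.60-fold, and differences within that range were compatible with its counts.

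**Figure D3:**
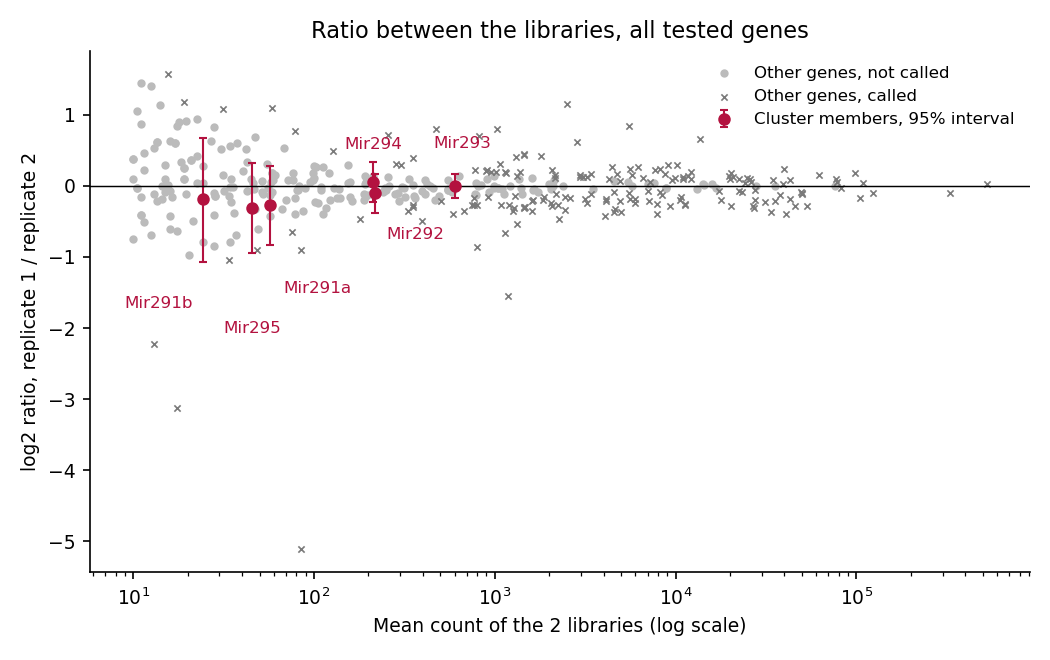
Log2 ratio of replicate 1 over replicate 2 after TMM scaling against the mean count of the libraries on a log scale, for the 401 genes tested; crosses are genes called different by the exact binomial test, and the labelled points are the members with 95% intervals. Each of the 6 member intervals includes 0, and the intervals widen from Mir293 to Mir291b as counts fall.

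The miR-302 cluster and the miR-17 seed family were set beside the cluster for their related seeds, chosen with earlier results of these data known. Whether every gene of these groups carries a related seed, Mir367 among them, was not analysed here. The cluster summed to 338.8 and 340.7 CPM, and the 5 genes of the miR-302 cluster, Mir367 among them, to 22290.4 and 27237.1 CPM in replicates 1 and 2. The cluster thus lay 65.8-fold below miR-302 in replicate 1 and 79.9-fold below it in replicate 2, a log2 difference of −6.18 ± 0.20 (SD, n = 2). By the median gene of each group in place of the sum it was −7.23. Mir302a (8710 and 10946 CPM) and Mir302d (7167 and 8540 CPM) were its 2 highest genes. Against the 6 genes of the miR-17 seed family, known from dividing cells, the log2 difference was −9.12 ± 0.04. That family was led by Mir17 (93908 and 98647 CPM) and Mir20a (35528 and 37167 CPM). With levels summed per length the differences were −6.40 ± 0.20 and −9.02 ± 0.04. All exceeded their spread between the pools.

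The balance within the groups also differed in range. Per length, the highest gene exceeded the lowest 26.0-fold and 22.7-fold among the members, and 13.4-fold and 13.5-fold in the miR-17 seed family. In the miR-302 cluster it did so 1028-fold and 1013-fold, and the lowest gene there was Mir367. The next lowest gene, Mir302c, had 1505 and 1971 CPM per 100 bases, so the width of this range rested on Mir367. Mir367 had 9.21 CPM in replicate 1 and 11.7 CPM in replicate 2. Per 100 bases this was 12.3 and 15.7 CPM, between the levels of Mir295 and Mir291b. The highest gene held 52.5% and 51.1% of the counts in the cluster, 39.1% and 40.2% in miR-302 and 50.8% and 51.1% in the miR-17 seed family. No test of these differences in range was made, because genes of a group are not replicates.

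**Figure D4:**
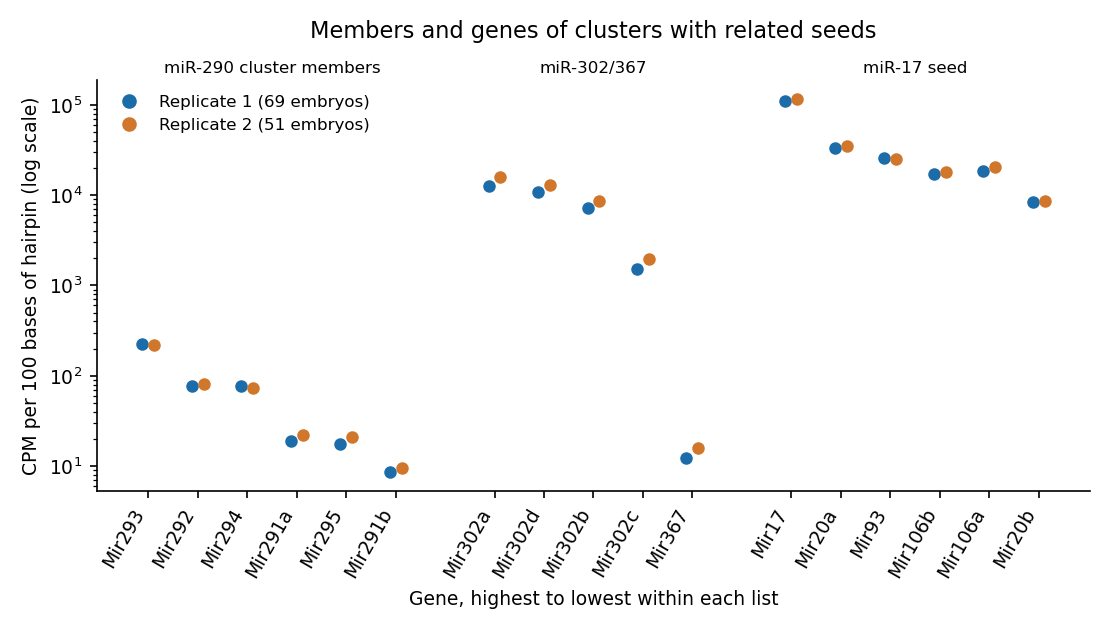
Level per 100 bases of annotated hairpin on a log scale for the 6 members, the 5 genes of the miR-302 cluster and the 6 genes of the miR-17 seed family, with 1 point per library. The members lie between 8.55 and 222 CPM per 100 bases, below all listed genes of both groups except Mir367.

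Between the pools, replicate 1 over replicate 2, the log2 ratio of summed counts was −0.04 for the cluster, −0.32 for miR-302 and −0.09 for the miR-17 seed family. The median over genes was −0.15 for the members, −0.36 for miR-302 and −0.09 for the miR-17 seed family. Mir367, whose 30 and 42 counts lie in the members' range, was not called by the exact binomial test (adjusted p = 0.46). These ratios share the same 2 libraries, and the interval of the cluster, −0.16 to 0.08, includes the value of the miR-17 seed family and not that of miR-302. Whether the cluster's ratio differs from theirs was not tested.

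The genes nearest to Mir293 in level over the 2 libraries were Mir30b, Mir3102 and Mir328, taking the distance on the log2(CPM + 1) scale without scaling for length. Mir30b had 168 CPM in replicate 1 and 168 CPM in replicate 2, Mir3102 had 166 and 173 CPM and Mir328 had 196 and 174 CPM. Their distances to Mir293 were 0.094, 0.095 and 0.14. With 2 libraries this likeness is mainly one of level.

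As a check of the tissue, 5 counted neural progenitor genes (Mir9-2, Mir9-3, Mir92b, Mir135a-1 and Mir135a-2) held 1.90% ± 0.18 of the counts. Mir92b carried most of this share, with a mean of 18228 of the list's 19026 CPM, against 5.58 CPM for Mir9-2. Of other cells the dissection could hold, the endothelial gene Mir126a held 3.05% ± 0.21, the 2 erythroid genes 0.0710% ± 0.0070, the leukocyte gene Mir223 0.0281% ± 0.0032, the 5 counted muscle genes 0.00384% ± 0.00013 and the liver gene Mir122 0.00103% ± 0.000068 (SD, n = 2). Among the muscle genes Mir1a-1, Mir133a-1 and Mir133a-2 had no count, and the share came from Mir208b and Mir499. Genes of several loci, such as those of miR-9, miR-135a and miR-133a, were counted through uniquely mapped reads alone, so their shares are lower limits. None of these genes was used to draw a result on the cluster. Mir9-1, Mir142 and Mir1a-2 were not among the counted genes.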

How the data were processed

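The authors deposited raw counts of reads per gene for each library, with no normalization. Per the labels the assembly was mm10 and fragments were shorter than 30 nt, and per the authors' file notes the annotation was GENCODE M4. No source used here names the aligner, trimming or counter. Gene-strand counts were used, after the deposited rows showed that either-strand counts equal both strands' sum in all 1973 genes. Tallies of reads in no gene stayed out of library sizes. They held, in replicates 1 and 2, 24.6% and 25.4% of reads as unmapped, 30.1% and 28.8% as mapped to several places and 7.28% and 8.82% as outside the listed genes. Of 1973 identifiers, 1894 matched GENCODE M21 by gene identifier, and the 79 others held 8 counts in both libraries together.

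CPM used the total gene count. With R 4.3.3, edgeR 4.0.16 gave the TMM factors for ratios, which had a pseudocount of 0.5 counts. The exact binomial test was run on the 401 genes whose counts averaged at least 10, because 1 group of 2 libraries leaves edgeR's quasi-likelihood test no contrast. Chi-square per degree of freedom between the libraries, a ratio of variances that grows with depth, was 54.3. The libraries thus differed beyond sampling noise and are separate, and the common coefficient of variation was 14.0%. The exact binomial test treats counts as free of that variation. Intervals at 95% are Clopper-Pearson or Poisson. Tests ran in scipy 1.17.1 under Python 3.11.15, with numpy 2.4.6 and pandas 2.3.3, after a check on simulated data. Figures were drawn with matplotlib 3.10.9. Mature sequences matched 5 member hairpins and 11 mature arms. The named genes were the members, counted genes within 10 kb, the 2 highest of each related list, the 3 genes nearest to Mir293 and the marker lists. Members and lists were chosen with earlier results of these data known.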

Additional observations from a re-analysis of the deposited data

How the results depend on the processing

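The members' ratios between the pools kept their direction and stayed uncalled in all 33 alternatives tried. These were total-count or DESeq2 scaling, other pseudocounts and other filters, with adjusted p-values from 0.52 to 1 by the exact binomial test. The pseudocount could change neither direction nor call, and a filter could not change direction. Only the scalings could change both, and total-count and DESeq2 scaling gave nearly the same library sizes. The log2 ratio of the summed cluster was −0.01 with total-count or DESeq2 scaling and −0.03 with reads on either strand. Genes called over the whole table numbered 177 with either scaling, 166 without a filter and 163 at a mean count of 100 or more, against 174. The cluster's share was 0.0328% of reads counted on either strand and 0.0127% of all reads. Both lie further from 0.0340% than the spread between pools, and the larger totals are the cause by construction. Leaving out a replicate moved the share between 0.0339% and 0.0341%. Counts per base of hairpin raised the share of Mir295, the shortest hairpin, to 4.56%, and moved the other shares by less than their spread. The log2 difference to miR-302 was −7.23 by the median gene and −6.50 without the highest gene of each group, and ran from −6.32 to −6.04 leaving out a replicate. The difference to the miR-17 seed family was −8.88 by the median gene. The cause of these shifts was not tested. No paired analysis was possible because the series has 1 group. Depth limits the rarest hairpins, Mir291b with 22 and 27 counts and Mir290a with 2 and 6.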

Other observations

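The cluster summed to 338.8 CPM in replicate 1 and 340.7 CPM in replicate 2, beside 7950 and 4770 CPM for 10 counted genes of let-7, miRNAs known to rise during differentiation. Mirlet7g carried most of the let-7 sum, with 4979 CPM in replicate 1 and 3097 CPM in replicate 2. Reads mapped to several places went to no gene, so the let-7 sum is a lower limit. The log2 ratio of summed counts, replicate 1 over replicate 2, was −0.04 for the cluster and 0.71 for let-7. Whether the cluster and let-7 differ in this ratio was not tested.

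Among the 5 X-linked testis genes listed because the cluster is also known from germ cells, Mir741 and Mir743 had counts in both libraries, and Mir871, Mir880 and Mir883a had none in either. The list summed to 11 counts in replicate 1 and 7 in replicate 2, or 3.38 and 1.96 CPM. Of 63 genes of the Mir466, Mir467 and Mir669 families, known from the Sfmbt2 intron, 19 had counts in both libraries and 39 had none in either. The list summed to 5040 CPM in replicate 1 and 5907 CPM in replicate 2. Reads mapped to several places went to no gene, so for genes alike in sequence a count of 0 need not mean absence.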
